A study of Homo sapiens with 2 samples.

Results

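The replication-dependent histone genes are the genes in the files whose symbol starts with HIST1H, HIST2H, HIST3H or HIST4H and that had 20 or more UMIs over both libraries. UMIs are molecular tags, and each stands for 1 RNA molecule caught in a droplet. The files list 71 genes with such a symbol, and 45 of them reached the minimum, among 13957 genes of all kinds that did. The members are 4 of 6 listed H1 genes, 14 of 17 H2A genes, 14 of 18 H2B genes, 6 of 15 H3 genes and 7 of 15 H4 genes. A further 17 listed genes had 0 UMIs in both libraries and 9 had fewer than 20. The last members inside the minimum were HIST1H4A with 20 UMIs and HIST1H2AK with 23, and the nearest genes outside it were HIST1H3A with 18 and HIST1H4J with 17. In the control library 44 members had 20 or more UMIs, and in the SP11 library 12 did.

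Single-cell RNA-seq on a droplet platform was run on 1 library of untreated cells and 1 library of cells given SP11 at 0.8 µM for 48 h. The study presents SP11 as a compound that blocks the chaperone HSP90. Both carry the label MOLT4, the name of an established human cell line grown from a T-cell leukemia, and were cultured in the same medium. The sources used here do not say whether the untreated cells received the vehicle. With 1 library per group there is no replicate, so no test was possible and every difference is one between these libraries. Intervals are 95% and cover counting error only.

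The kept cells numbered 1053 in control and 852 in SP11, with 19375163 and 9498802 UMIs and medians of 17711 and 10489 UMIs per cell. The labelled cell type was not borne out by its markers. Of 22 T-lineage genes, 12 had 0 UMIs in control and 13 in SP11, among them CD3D, CD3G, CD7, TRBC1, TRBC2, BCL11B and DNTT in both. All 22 summed to 74.3 CPM (a gene's UMIs scaled to a fixed library total) in control and to 47.1 CPM in SP11. In each library 1 of the 22 reached 10 CPM. The list without CD4 and LAT, which was set after its values were seen, stood at 2.84 CPM in control and at 2.11 CPM in SP11. Of 12 myeloid markers, 6 in control and 7 in SP11 reached 10 CPM. The name MOLT4 is used here only as the label. Most genes had a lower CPM in SP11, with a median log2 ratio of SP11 to control of -0.40 over the 13957 genes.

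Core histones H2A, H2B, H3 and H4 form the protein spool that DNA winds around, and H1 binds the DNA between spools. Their replication-dependent genes lie in clusters, are transcribed in bursts as DNA is copied, and mostly give messages without introns that end in a short hairpin, the stem-loop, in place of a poly(A) tail. The stem-loop binding protein SLBP holds that hairpin and serves in the cutting, translation and decay of the message. A minority of the genes can also give a polyadenylated message, and droplet methods commonly prime on stretches of A, so the capture of tail-less histone messages can be uneven.

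The 3' hairpins of the members are shown because they are the shared element of these messages. A search of GRCh38 for a 6-base stem and a 4-base loop within 150 bases after the stop codon, with gene models of GENCODE 44, found 1 in 41 members. Only fully paired stems that start with GG, with a loop that starts with TT, were counted. None of that form was found for HIST1H2AK and HIST1H2AG, and HIST2H2AA4 was not annotated. For HIST2H2BF the stop codon used lay far from its shortest annotated message, so the search did not cover the end of that message. Capitals mark the stem-loop, lower case the 5 bases on either side, all 5′ to 3′ on the gene's strand.
HIST1H4C, chr6:26104312-26104337, plus strand: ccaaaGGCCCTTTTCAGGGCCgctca
HIST1H3B, chr6:26031592-26031617, minus strand: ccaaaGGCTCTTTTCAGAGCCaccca
HIST1H1C, chr6:26055739-26055764, minus strand: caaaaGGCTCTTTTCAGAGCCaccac
HIST2H2AC, chr1:149887386-149887411, plus strand: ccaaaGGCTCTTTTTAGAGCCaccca
HIST1H2BJ, chr6:27132316-27132341, minus strand: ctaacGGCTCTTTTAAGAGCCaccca
The form shown for HIST1H3B and HIST1H1C was the most common, in 27 members of the H1, H2A, H2B and H3 classes. The form of HIST1H4C occurred in 5 members, all H4 genes. The form of HIST1H2BJ occurred in 6 H2A and H2B members.

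A second sequence feature of HIST1H4C is shown because its level moved apart from the rest, and it was looked for after that was seen. The 12-base window with the most A in each annotated message was located, and the capitals mark it.
HIST1H4C, chr6:26104290-26104319, plus strand, after the stop codon: caaaaaacaAAAACAAAAAAAcccaaaggc
HIST1H1D, chr6:26234690-26234719, minus strand, in the coding part: acgatgtagAAAAAAACAACAgccgtatca
HIST2H2AC, chr1:149887345-149887374, plus strand, across the stop codon: acaaagccaAAAGCAAATAAAtgcagacaa
HIST1H3B, chr6:26031602-26031631, minus strand, after the stop codon: atcagtcttAAAACCCAAAGGctcttttca
HIST1H4E, chr6:26204867-26204896, plus strand, in the coding part: gagcacgccAAACGCAAGACAgtgacagcg
Where windows tied, 1 is shown. The window of HIST1H4C held 11 A and lay shortly before its stem-loop, so the printed stretches of this gene overlap. That of HIST1H1D held 10, that of HIST2H2AC 9, and those of HIST1H3B and HIST1H4E 7.

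The summed level of the members hid opposite differences. All 45 members together lay at 1406 CPM (1389 to 1423) in control and at 1639 CPM (1613 to 1665) with SP11, for a log2 ratio of 0.22 (0.19 to 0.25). A single gene, HIST1H4C, was at least 1.5-fold higher in SP11. In both libraries it held more UMIs than all the others together, 13791 against 13446 in control and 13841 against 1724 in SP11. It was set apart from the other 44 members after its values were seen. Those 44 stood at 694 CPM (682 to 706) in control and at 181 CPM (173 to 190) with SP11, for a log2 ratio of -1.93 (-2.01 to -1.86).

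Counted gene by gene, 43 of the 45 members were at least 1.5-fold lower in SP11, where 41.3% of all genes were. At least 4-fold lower were 34 members, where 8.71% of all genes were. The minimum was a sum over both libraries, and 44 members reached 20 UMIs in control but 12 in SP11. Most members thus entered through their control counts, and most of their SP11 counts were small. HIST1H4C was the 1 member at least 1.5-fold higher, where 11% of all genes were, and 0 members were at least 4-fold higher, where 0.609% of all genes were. The median log2 ratio of the members was -2.54, or -2.46 with the members at 0 UMIs placed at a floor of 3 counts. Measured against the median gene, 40 members were at least 1.5-fold lower, where 26.3% of all genes were. Genes annotated with 1 exon had a lower median log2 ratio in general, -0.77 over 540 such genes. At least 1.5-fold lower were 56.3% of them, and 31 of the 33 single-exon members. A 4-fold or deeper difference was seen in 17.4% of them, and in 26 of the 33. Among the 11 members with 200 or more UMIs, 10 were at least 1.5-fold lower, where 33.7% of the 9564 genes with as many UMIs were.

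**Figure D1:**
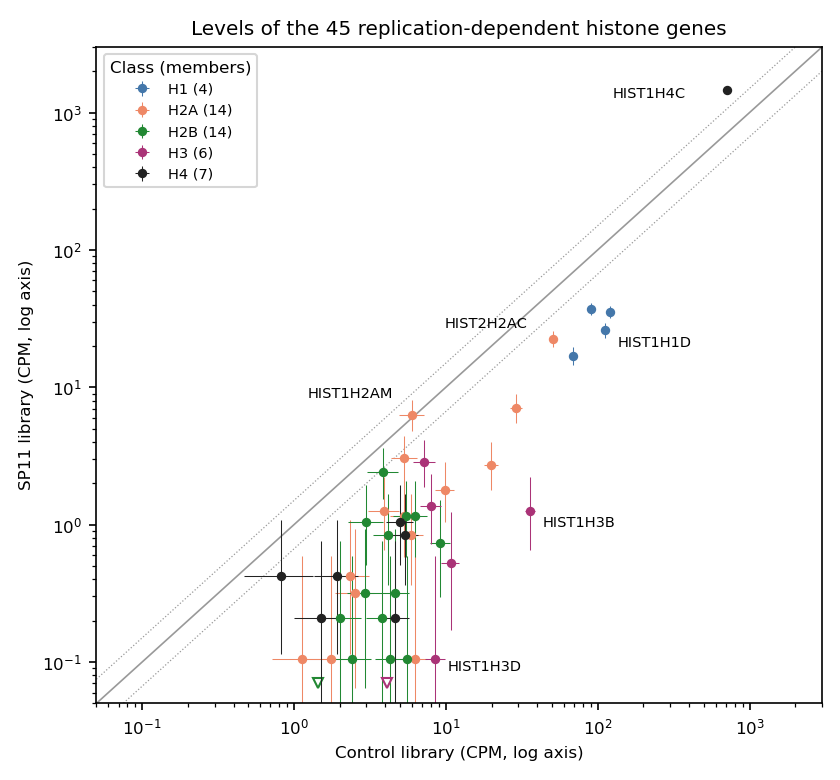
CPM of each of the 45 members in the control library (x axis) and the SP11 library (y axis), both on log axes and coloured by histone class, with 95% Poisson intervals. The solid line is equality and the dotted lines are 1.5-fold; HIST1H4C is the 1 point above them, and the open triangles at the bottom are the 2 members with 0 UMIs in SP11.

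HIST1H4C encodes histone H4, the core histone for which nearly all H4 genes carry the same protein sequence. It had 13791 UMIs in control and 13841 in SP11, although the SP11 library held fewer UMIs in all. On the CPM scale this was 712 (700 to 724) in control and 1457 (1433 to 1482) with SP11, for a log2 ratio of 1.03 (1.00 to 1.07). Per kilobase of exonic length its level was 1758 CPM in control, where the next member, HIST1H1C, lay at 165. In SP11 the same scale gave 3598 for HIST1H4C and 48.4 for HIST1H1C. A UMI stands for a molecule whatever its length, so dividing by length raises short messages such as that of HIST1H4C. Undivided, HIST1H1C lay at 120 CPM in control and at 35.4 CPM in SP11. HIST1H4C took 97.4% of the UMIs of the H4 class in control and 99.8% in SP11. The gene lies at chr6:26103933-26104337 inside the annotated span of HIST1H2BC on the other strand. The sources used here do not say whether counting used strand, and HIST1H2BC itself had 178 UMIs in control and 7 in SP11.

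The other H4 genes were all lower in SP11. Without HIST1H4C the class lay at 19.3 CPM (17.4 to 21.4) in control and at 3.16 CPM (2.13 to 4.51) with SP11, for a log2 ratio of -2.61. HIST1H4I went from 5.42 to 0.842 CPM, a log2 ratio of -2.69 (-3.93 to -1.66). HIST1H4H, which can also give a polyadenylated message, went from 5.01 to 1.05 CPM, a ratio of -2.25 (-3.35 to -1.31). Thus genes for the same protein lay on opposite sides of equality. The least changed of them was HIST1H4A, with 16 UMIs in control and 4 in SP11 and an interval of -3.01 to 0.66 that spans 0. The shortest annotated message of HIST2H4B, 396 bases of 1878 exonic bases, shares all of its 60-base runs with that of HIST2H4A. Molecules from that part cannot be told apart between this pair.

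H3 was the class with the deepest difference. Its 6 members stood at 74.3 CPM (70.5 to 78.3) in control and at 6.11 CPM (4.64 to 7.89) with SP11, for a log2 ratio of -3.61 (-4.01 to -3.23). HIST1H3B, the H3 gene with the most UMIs, went from 693 UMIs or 35.8 CPM in control to 12 UMIs or 1.26 CPM with SP11, for a log2 ratio of -4.82 (-5.78 to -4.01). HIST1H3C went from 208 UMIs to 5, a ratio of -4.35 (-5.99 to -3.10), and HIST1H3D from 165 UMIs to 1, a ratio of -6.34 (-11.65 to -3.84). HIST1H3F had 80 UMIs in control and 0 in SP11, which at the 3-count floor is at least 13.1-fold lower. The smallest difference in the class was that of HIST1H3J, from 140 to 27 UMIs, with a log2 ratio of -1.35 and an interval below 0. The make-up of the class differed with it, since HIST1H3B held 48.1% of H3 UMIs in control and 20.7% in SP11, and HIST1H3J 9.72% and 46.6%.

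H2B, the partner of H2A in the core particle, was the next lowest. Its 14 members stood at 59.0 CPM (55.7 to 62.6) in control and at 8.74 CPM (6.96 to 10.8) with SP11, for a log2 ratio of -2.76 (-3.10 to -2.43). All 14 were at least 1.5-fold lower, and 12 passed 4-fold, where 41.3% and 8.71% of all genes did. HIST1H2BC went from 178 to 7 UMIs, HIST1H2BD from 121 to 11, HIST1H2BN from 106 to 11 and HIST2H2BE from 107 to 1. HIST1H2BM had 28 UMIs in control and 0 in SP11, at least 4.58-fold lower at the floor. The highest ratio in the class was that of HIST1H2BJ, -0.68 (-1.42 to 0.01), from 75 to 23 UMIs, and its interval spans 0.

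H2A held both well counted members and a second exception. The class lay at 150 CPM (144 to 155) in control and at 47.9 CPM (43.6 to 52.5) with SP11, for a log2 ratio of -1.64 (-1.79 to -1.50). HIST2H2AC, its most counted gene, went from 50.7 to 22.6 CPM, a ratio of -1.16 (-1.38 to -0.95), and its share of the class was 33.9% in control and 47.3% in SP11. HIST1H2AH went from 29.0 to 7.05 CPM, a ratio of -2.04 (-2.43 to -1.67), and HIST1H2AG from 19.8 to 2.74 CPM, a ratio of -2.86 (-3.49 to -2.28). HIST1H2AL went from 121 UMIs to 1, a ratio of -5.89 (-11.21 to -3.39) and the lowest of the class, and HIST1H2AI from 114 to 8 UMIs. HIST1H2AM was at 5.99 CPM in control and at 6.32 CPM in SP11, a ratio of 0.08 (-0.40 to 0.54). It overlaps HIST1H3J on the same strand, the H3 gene with the highest ratio, so molecules of the overlap can be of either. HIST1H2AJ, at -0.80 (-1.45 to -0.19), shares 65.5% of its 60-base runs with HIST1H2AI, and their counts are uncertain for that reason.

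The 4 H1 members, the linker histones, were close to each other in level and in ratio. The class lay at 392 CPM (383 to 401) in control and at 116 CPM (109 to 123) with SP11, for a log2 ratio of -1.76 (-1.85 to -1.67). HIST1H1D had a ratio of -2.11 (-2.30 to -1.92), HIST1H1B one of -2.01 (-2.26 to -1.78), HIST1H1C one of -1.77 (-1.94 to -1.60) and HIST1H1E one of -1.28 (-1.45 to -1.12). The intervals of HIST1H1D and HIST1H1B overlap, and that of HIST1H1E lies above the other 3. Per kilobase of exonic length their levels in control were 165 CPM for HIST1H1C, 145 for HIST1H1D, 115 for HIST1H1E and 85.9 for HIST1H1B. In SP11 the same scale gave 48.4, 33.6, 47.2 and 21.3, so that HIST1H1E stood beside HIST1H1C.

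**Figure D2:**
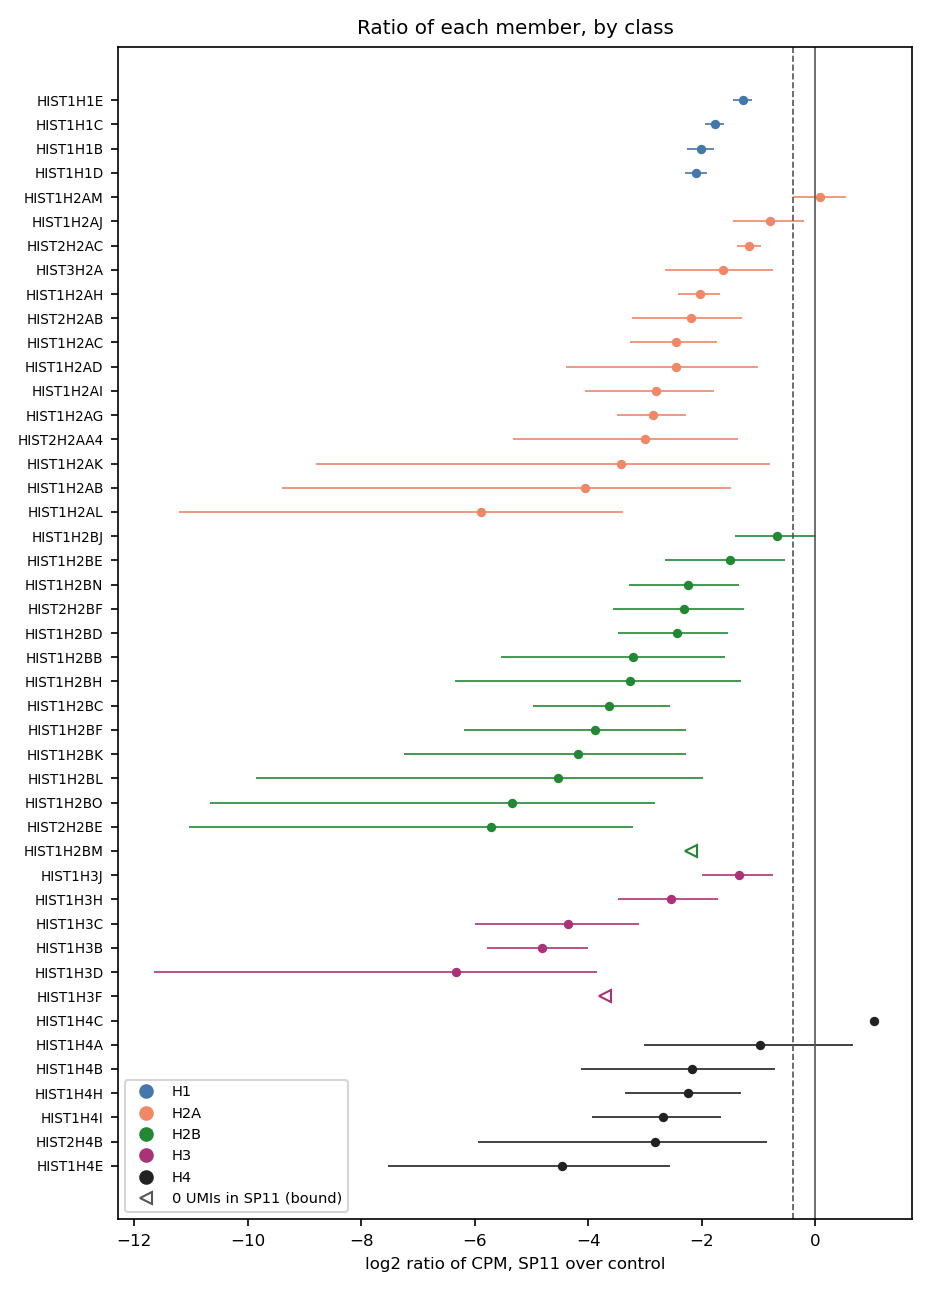
Difference of each member between libraries, as log2 of its SP11 CPM over its control CPM, within its class, with the exact 95% interval of the split of its UMIs. The solid line is 0 and the dashed line the median of all genes at -0.40; open triangles mark HIST1H2BM and HIST1H3F, with 0 UMIs in SP11, at the bound set by 3 counts.

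Members known to give polyadenylated messages as well were lower in SP11 like the others. Of a list of 10, HIST4H4 had 0 UMIs in both libraries. The other 9, HIST1H1C, HIST1H2AC, HIST1H2BC, HIST1H2BD, HIST1H2BJ, HIST1H2BK, HIST1H4H, HIST2H2BE and HIST3H2A, were all at least 1.5-fold lower, where 41.3% of all genes were. They stood at 168 CPM in control and at 44.1 CPM with SP11, for a log2 ratio of -1.93 (-2.08 to -1.78). The 35 members not on the list, HIST1H4C left out, had a ratio of -1.94 (-2.02 to -1.85), and the difference between both groups was not tested. HIST1H1C held 2334 of the 3252 control UMIs of the list, and without it, a sum added after the data were seen, the ratio was -2.44 (-2.78 to -2.11). The medians over members were -2.43 on the list and -2.80 off it. By chromosomal cluster, the 37 members of the HIST1 cluster other than HIST1H4C went from 620 to 155 CPM and the 6 of HIST2 from 69.7 to 25.3 CPM.

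The A content of the messages went with the ratios across all single-exon members, but not in the same direction within each class. The 17 single-exon members whose richest 12-base window held 6 or 7 A, all of them H2B, H3 or H4 genes, had a median log2 ratio of -4.35. The 9 with 8 A, of H1 and H2A, had a median of -2.80, and the 6 with 9 or 10, of H1 and H2A, had one of -1.22. HIST1H4C, alone with 11, stood at 1.03. Spearman's correlation between the count of A and the ratio was 0.50 across the 33 single-exon members, and -0.04 across 507 other single-exon genes. HIST1H4C, whose level prompted the search, is among the 33, with the most A and the highest ratio. Of the 507 other genes, 32 held 6 or 7 A, so the counts of A are spread unlike those of the members. The members share both libraries, and the A content differs between histone classes. Within H2A, the 3 members with 9 A (-1.16 to 0.08) all lay above the 8 with 8 A (-5.89 to -2.04). Within H1, the member with 10 A (-2.11) lay below the one with 8 (-2.01) and both with 9. Within H3 and the H4 genes other than HIST1H4C, members with 7 A lay below those with 6, and within H2B the 4 with 7 A had a median of -5.53 and the 4 with 6 A one of -4.03. The part of priming on such stretches in these values was not tested. Stem-loop form showed less. Medians were -2.54 over the 27 members of the most common form and -3.04 over the 6 with the form of HIST1H2BJ. Of the 5 H4 genes with the form of HIST1H4C, 4 were at least 1.5-fold lower, where 41.3% of all genes were.

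Promoter letters are given for 3 members that were lower in SP11, because the members share short elements there and RefSeq's table (GRCh38) held an entry for 40 of them. The 150 bases before each start are printed 5′ to 3′ on the gene's strand. Capitals mark matches, on either strand, to the CCAAT box, to the TATA box written as TATAAA, and to most of the octamer, written as TTTGCAT.
HIST1H3B, chr6:26032100-26032249, minus strand: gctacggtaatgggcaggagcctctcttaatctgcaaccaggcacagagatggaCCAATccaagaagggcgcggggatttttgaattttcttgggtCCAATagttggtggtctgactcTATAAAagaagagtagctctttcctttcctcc
HIST1H2AC, chr6:26124022-26124171, plus strand: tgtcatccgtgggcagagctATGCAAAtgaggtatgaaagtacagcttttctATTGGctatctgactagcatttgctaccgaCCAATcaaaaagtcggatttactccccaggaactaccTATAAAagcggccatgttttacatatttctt
HIST1H1C, chr6:26056471-26056620, minus strand: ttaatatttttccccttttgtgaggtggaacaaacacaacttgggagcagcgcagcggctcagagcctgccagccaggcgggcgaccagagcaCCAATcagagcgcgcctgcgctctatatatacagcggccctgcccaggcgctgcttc
Over windows from 250 bases before to 50 bases after the start, CCAAT was found in 90% of the 40 members and 35.7% of all 27305 promoters of the table, and TATAAA in 62.5% and 12%. TTTGCAT was found in 9 of 12 H2A and 11 of 14 H2B members, in 0 of the H1, H3 and H4 members, and in 4.51% of all promoters. Some H2A and H2B members start close together on opposite strands, so their windows overlap. The same site can then count for both genes, as for HIST1H2AC and HIST1H2BC, and the counts of both classes are not independent. CCAAT was in every H1, H2A, H2B and H3 member with an entry and in 1 of the 5 H4 members with an entry. HIST1H4C had no entry, so none of these counts describes it.

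Levels followed the cell cycle in both libraries, with a smaller swing in SP11. Cells were classed as G1, S or G2/M from S and G2/M gene scores, which hold 0 of the members. The classes are ranges of a score, and 248 of the 1053 control cells and 243 of the 852 SP11 cells lay within 0.05 of a boundary. The other 44 members summed to 238 CPM (225 to 252) in G1, 971 CPM (947 to 995) in S and 754 CPM (735 to 774) in G2/M of control, so S cells were 4.08-fold above G1 cells. In SP11 they lay at 149 CPM (133 to 166), 274 CPM (255 to 293) and 137 CPM (127 to 149), a fold of 1.84. The G2/M level was 3.17-fold above G1 in control and level with G1 in SP11, at a fold of 0.925.

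HIST1H4C also peaked in S cells and was higher in SP11 in all 3 classes. In control it lay at 159 CPM (148 to 171) in G1, 957 (933 to 980) in S and 862 (841 to 883) in G2/M. In SP11 it lay at 779 CPM (743 to 817), 2210 (2156 to 2265) and 1298 (1264 to 1332). Its fold of S over G1 was 6.01 in control and 2.84 in SP11. Within classes the log2 ratio of SP11 to control was 2.29 in G1, 1.21 in S and 0.59 in G2/M for HIST1H4C, and -0.68, -1.83 and -2.46 for the other members.

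The size of the G1 values depended on how the classes were drawn. With both libraries scored together, S over G1 for HIST1H4C was 3.40-fold in control and 3.27-fold in SP11, so most of the difference in its swing was gone. For the other members it was 2.99-fold and 1.94-fold, and for cells scored at 4400 UMIs each it was 2.48-fold and 1.80-fold. In G1 cells under joint scoring, the log2 ratio of SP11 to control was 1.09 for HIST1H4C and -1.36 for the other members. Under each of these scorings HIST1H4C was higher and the other members were lower in SP11 in G1 cells, and S cells had the highest level of both in each library. The G2/M level of the other members in SP11 was 1.04-fold that of G1 under joint scoring.

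**Figure D3:**
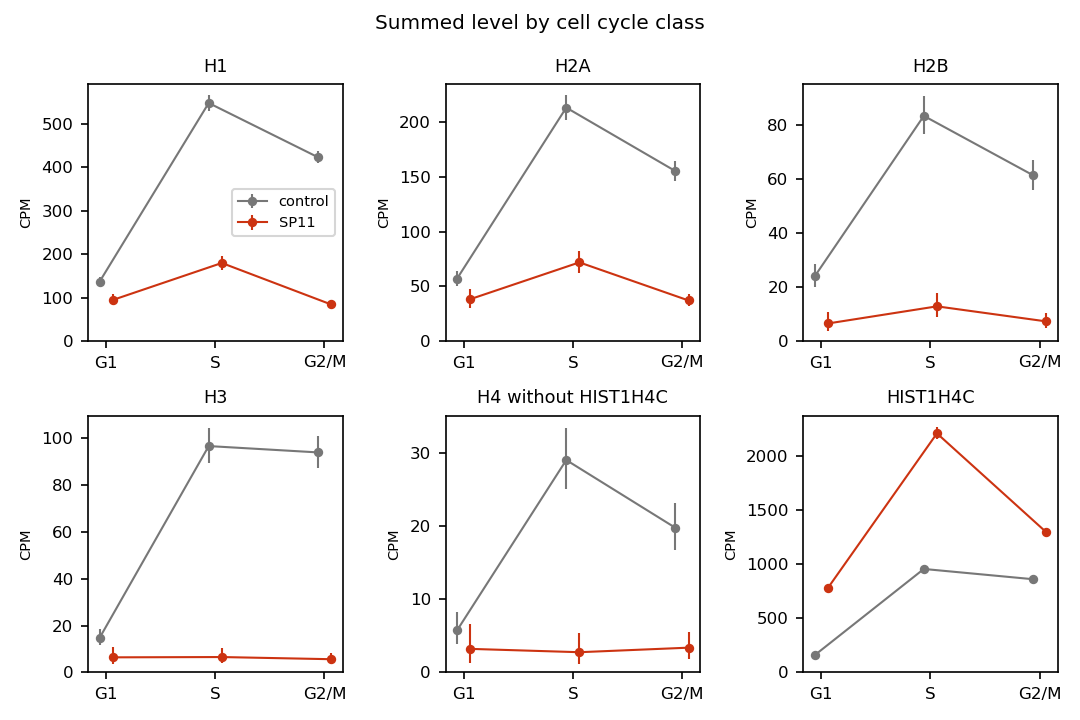
Summed CPM by cell cycle class in each library for H1, H2A, H2B, H3, the H4 members without HIST1H4C, and HIST1H4C, with 95% Poisson intervals and linear axes from 0. Grey is control and red SP11; from G1 to S the control lines rise by folds of 3.49 (H2B) to 6.57 (H3), the SP11 line lies below control in all panels but the last, and H3 is flat in SP11.

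By class, H3 swung widely in control, and no swing could be seen at this depth in SP11 with the libraries scored apart. It lay at 14.7 CPM in G1, 96.7 in S and 94.0 in G2/M of control, a 6.57-fold difference of S from G1. In SP11 it lay at 6.44 CPM (3.52 to 10.8), 6.57 (3.95 to 10.3) and 5.64 (3.65 to 8.33), which rest on 14, 19 and 25 UMIs and overlap throughout. The log2 ratio of S over G1 for H3 was 2.72 in control and 0.03 in SP11 with the libraries scored apart, 1.75 and 0.74 scored together, and 1.34 and 0.63 at 4400 UMIs per cell. At 4400 UMIs H2B, at 1.37, was above H3 in control, so the order of the classes depended on the scoring. The H4 members without HIST1H4C gave a like picture, at 5.77, 29.0 and 19.8 CPM in control and 3.22, 2.76 and 3.39 CPM in SP11. Those SP11 values rest on 7, 8 and 15 UMIs. H1 kept a swing, from 136 to 548 CPM between G1 and S in control, 4.02-fold, and from 94.3 to 180 CPM in SP11, 1.91-fold. H2A had folds of 3.74 and 1.88, and H2B of 3.49 and 1.99. The H2B fold in SP11 rests on 14 UMIs in G1 and 37 in S, with a log2 interval of 0.07 to 1.99. It overlaps that of H3 in SP11, -1.05 to 1.14, so these classes were not told apart there.

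Nearly all counted members shared the S phase pattern in control. The minimum of 20 UMIs was a sum over both cell classes compared, so a member could pass it on 1 of them alone. Of the 40 with 20 or more UMIs over the S and G1 cells, 37 were at least 1.5-fold higher in S than in G1, where 6.17% of all genes were, and 26 at least 4-fold higher, where 0.418% of all genes were. The 3 below 1.5-fold were HIST1H2BN at 1.39-fold, HIST3H2A at 0.761-fold and HIST1H2BE at 0.495-fold, and the intervals of all 3 span equality. In SP11 8 members reached that minimum, and 7 of them were at least 1.5-fold higher in S, where 6.35% of all genes were, and 0 at least 4-fold higher, where 0.0601% were. The exception was HIST1H1B, which encodes a linker histone, at 1.39-fold in SP11 against 7.02-fold in control, and its SP11 interval spans equality. For G2/M over G1, 35 of 39 members in control were at least 1.5-fold higher, where 7.12% of all genes were, and 1 of 9 in SP11, where 10.1% were, a share near the background. S cells exceeded G2/M cells by at least 1.5-fold for 13 of 44 members in control, where 8.56% of all genes did, and for 8 of 11 in SP11, where 6.54% did.

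In S and G2/M cells, most members that could be counted were lower in SP11, and in G1 cells fewer could be counted. The minimum was again a sum over both libraries, so a member could pass it on its control counts alone. In G1 cells 7 of 13 members with 20 or more UMIs over both libraries were at least 1.5-fold lower. That is 53.8% of few members, where 38.8% of all genes were. A 4-fold difference was passed by 5 of them, where 7.32% of all genes passed it. In S cells the counts were 35 and 27 of 38, where 40.7% and 6.69% of all genes were. In G2/M cells they were 35 and 25 of 36, where 36% and 5.52% were. HIST1H1B was at 13.1 CPM in G1 cells of control and 16.1 CPM in those of SP11, a ratio of 0.29 (-0.34 to 0.91), against -2.04 in S cells.

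The shares of the classes depended on the scoring too. Scored in each library alone, G1, S and G2/M cells made up 31.9%, 33.4% and 34.7% of control and 26.8%, 31.1% and 42.1% of SP11. SP11 levels were also reweighted to the share of control UMIs, not of control cells, in each class. The log2 ratio was then 1.05 for HIST1H4C and -1.89 for the other members. With both libraries scored together the shares of cells were 42.6%, 23.2% and 34.2% of control and 21.5%, 32.3% and 46.2% of SP11. The ratios reweighted to the control shares of UMIs, computed after the data were seen, were 0.82 and -2.03.

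The cycle was also divided more finely. Cells were split into 8 sectors of 45 degrees around the origin of the S and G2/M scores, starting on the S axis. The scores were those of each library alone, so a sector need not hold the same range of cells in both. Sector 4, for example, held 53 control and 172 SP11 cells. Sectors of joint scores were not drawn. Control levels were highest in sectors 1 and 2, where both scores are positive, with 1801 and 1847 CPM of HIST1H4C and 1735 and 1745 CPM of the other members. The G2/M score is the larger of both scores in sector 2. The lowest control sector was sector 6, where both scores are negative, at 154 and 218 CPM. In SP11 the peak was in sector 1 (24 cells), at 6023 CPM (5716 to 6343) of HIST1H4C and 682 CPM (581 to 795) of the others, and the lowest sectors were sector 5 for HIST1H4C, at 730 CPM, and sector 4 for the others, at 108 CPM. In control the level of HIST1H4C and that of the others were thus nearly equal at the peak, and in SP11 they were not.

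**Figure D4:**
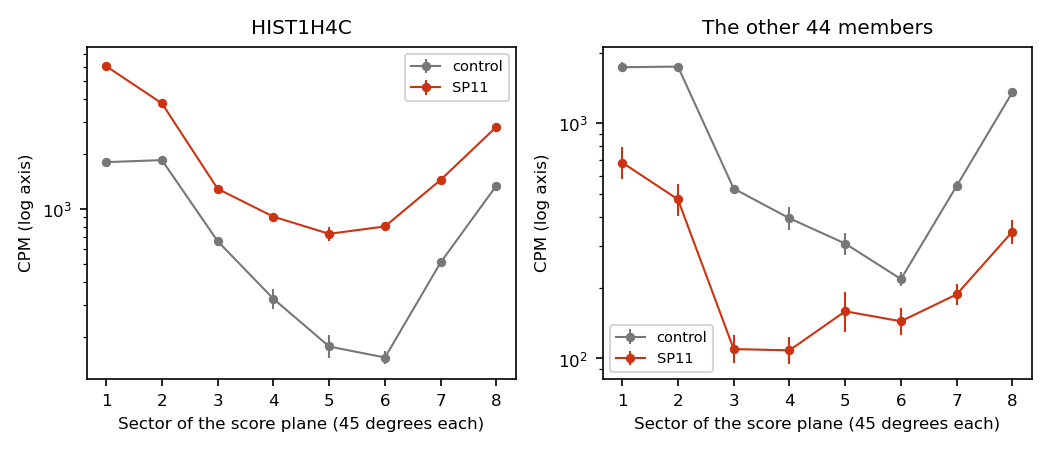
CPM of HIST1H4C (left) and of the other 44 members summed (right) over 8 sectors of the plane of S score and G2/M score, on log axes, with 95% Poisson intervals. Sectors 1 and 2 hold cells with both scores positive and sectors 5 and 6 cells with both negative. With each library scored alone, SP11 lies above control in every sector on the left and below it in every sector on the right. Sectors are not matched between the libraries.

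The distribution over cells was compared after drawing 4400 UMIs from each cell, which left 963 control and 769 SP11 cells. HIST1H4C was detected in 55.8% (52.6 to 58.9) of the control and 73.0% (69.7 to 76.1) of the SP11 cells, against 75.2% and 84.0% without equal depth. Cells with 10 or more made up 9.87% (8.05 to 11.9) of control and 17.2% of SP11, or 95 and 132 cells. The highest cell held 23 such UMIs in control and 82 in SP11, and the 90th percentile of cells was 9 and 18. Both the share of cells with the gene and the highest values were thus larger in SP11. For the other 44 members, a UMI was found in 61.2% (58.0 to 64.3) of the control and 41.6% (38.1 to 45.2) of the SP11 cells. At this depth 79 control cells, 8.20%, had 10 or more and 0 of 769 SP11 cells did, which at 3 counts of the total allows a share of up to 0.390%. Cells of a type that lacks these genes were not looked for, so the share that free RNA gives was not measured.

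Cells rich in HIST1H4C were also the richest in the other members, in both libraries. Of the 95 control cells with 10 or more HIST1H4C UMIs at equal depth, all had UMIs of other members, with a mean of 8.16. The 132 such SP11 cells had a mean of 2.39, and 84.8% of them (77.6 to 90.5) had any. Cells with 0 HIST1H4C UMIs had means of 0.685 in control and 0.303 in SP11. Spearman's correlation between both counts was 0.67 across 963 control cells and 0.42 across 769 SP11 cells, which describes cells that share a library.

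**Figure D5:**
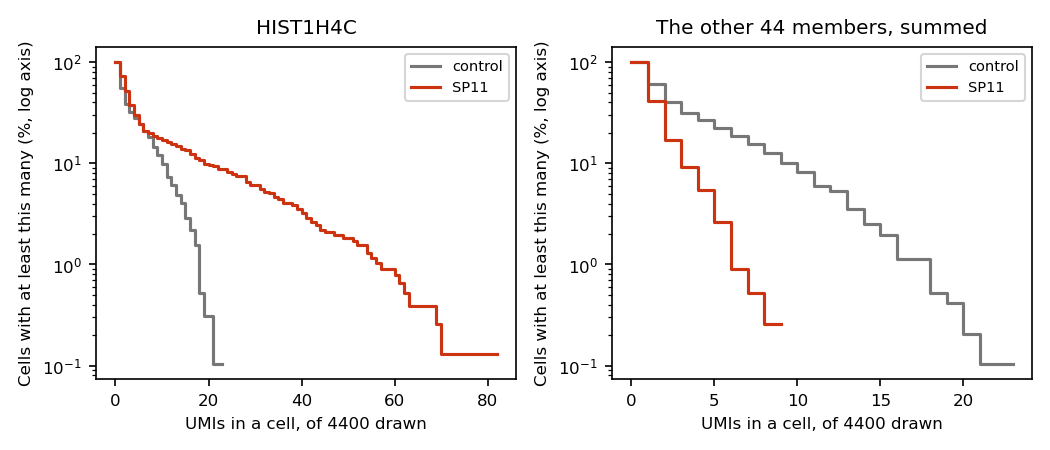
Share of cells with at least a given number of UMIs after drawing 4400 UMIs per cell, for HIST1H4C (left) and for the other 44 members summed (right), with the share on a log axis. The SP11 line runs out to 82 UMIs on the left, past the control maximum of 23, and ends at 9 on the right, where control again reaches 23.

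Histone genes outside the replication-dependent clusters did not share the lower level. These replacement histones are made through the cell cycle from polyadenylated messages. Of 9 with 20 or more UMIs, 1 lay at least 1.5-fold below control and 1 as far above it, where 41.3% and 11% of all genes did, and the median log2 ratio was 0.13 against -0.40 over all genes. The higher count is thus near the background. H1F0, a linker histone, was the lower one, from 17.4 to 7.05 CPM, a ratio of -1.30. H2AFZ, which encodes H2A.Z, was the higher one, from 925 to 1568 CPM, a ratio of 0.76. H3F3B and H3F3A, both for H3.3, had ratios of 0.53 and 0.17, and H2AFX, for the H2A.X of DNA damage signalling, one of -0.32 that turned to 0.03 with TMM scaling.

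Factors that make and handle histone messages were mixed. Of 23 on the list, 3 lay at least 1.5-fold below control and 3 as far above it, where 41.3% and 11% of all genes did, with a median of 0.05. Measured against the median gene, 3 were as far below and 9 as far above, where 26.3% and 23.9% of all genes were. SLBP went from 112 CPM (107 to 117) to 190 CPM (181 to 199), a log2 ratio of 0.76 (0.67 to 0.86). LSM10, a part of the U7 particle that guides the 3' cut, had a ratio of 0.91, and CCNE2, a cyclin of S phase entry, one of 0.84. NPAT, the activator at histone clusters, went from 27.3 to 20.2 CPM, a ratio of -0.43 that lies near the median gene. POU2F1, which binds the octamer, had a ratio of -1.15 and SYMPK, the scaffold of the cutting complex, one of -1.11.

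Histone chaperones were mostly near equality, with 1 of 24 at least 1.5-fold below control, 4 as far above it and a median of 0.04, beside the same background. Measured against the median gene, 0 were as far below and 6 as far above, where 26.3% and 23.9% of all genes were. That higher count is near the background. IPO4, an importer of H3 and H4, had a ratio of 0.86, SSRP1, a subunit of FACT, one of 0.68, DAXX, a chaperone of H3.3, one of 0.64 and ASF1B, which hands on H3 and H4, one of 0.64. HJURP, the chaperone of the centromeric H3, was lowest at -0.79. The S phase genes used for scoring, mostly replication factors, had a median of 0.06 over 43 genes. Of these, 5 were at least 1.5-fold lower, where 41.3% of all genes were, and 8 higher, where 11% were. Measured against the median gene, 1 was as far below and 18 as far above, where 26.3% and 23.9% of all genes were. These lists were written with earlier results of the same libraries known, and the difference from the members was not tested.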

How the data were processed

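The authors deposited, for each of 2 libraries, a matrix of raw UMI counts per gene and barcode, which they had not normalized. The file headers name Cell Ranger 7.1.0 and the submitters' notes GRCh38. The sources used here do not say whether intronic reads were counted. Following the study's methods, barcodes with at least 200 genes and at most 20% mitochondrial UMIs were kept, which left out 23 of 1076 control and 12 of 864 SP11 barcodes. With the same limits the study states fewer kept cells for each library, so the cells analysed here are not the same set. The libraries share 114 barcodes. Scrublet (scanpy 1.11.5) called 45 control and 21 SP11 barcodes, which were kept. A gene's UMIs in all kept cells were added up and scaled to the library total (CPM). Intervals are 95% and cover counting error only. They are exact Poisson for CPM and exact binomial (Clopper-Pearson) for shares of cells, and for ratios they come from the binomial split of the UMIs between libraries. At 0 UMIs a floor of 3 counts was used (0.155 CPM for control, 0.316 for SP11). A fold of 1.5 is a size, not a call.

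Phases came from CellCycleScoring, run on each library by itself with R 4.3.3 and Seurat 5.3.0. Cells were thinned to 4400 UMIs for shares, which left out 90 control and 83 SP11 cells. Annotation came from GENCODE 44, matched by identifier for 44 of 45 members, sequences from GRCh38 and promoters from RefSeq. Named were, per class, the 3 members with the most UMIs and the 3 highest and lowest ratios among those with 100 or more UMIs, the polyadenylated list, the 2 members on either side of the minimum and, of other lists, from the 4 highest and 4 lowest ratios among genes with 50 or more UMIs, with SLBP and NPAT. HIST1H2BM, HIST1H3F, HIST1H4A, HIST1H4E, HIST1H2BE and HIST2H4B were named after their values were seen, beside the rule. Members and lists were chosen with earlier results of these data known. The study's groups are the labels' treatment field. As alternatives, the counts were scaled with TMM (edgeR 4.0.16) or with size factors from DESeq2 1.42.0. The code for ratios and thinning was tested on simulated data.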

Additional observations from a re-analysis of the deposited data

How the results depend on the processing

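Of all results under all alternatives, 435 values stayed within the counting interval of the reported value, or within 1.5 times a reported count, and 202 moved outside it. No ratio summed over members, in all cells or between or within cell cycle classes, changed sign where its interval lies apart from 0. TMM factors raised every ratio by 0.34 and DESeq2 size factors by 0.36. TMM gave -1.42 for H1, -1.30 for H2A, -2.41 for H2B, 1.34 for H4, 0.57 for all members and -1.59 for all but HIST1H4C, and DESeq2 gave -1.40, -1.28, -2.39, 1.36, 0.59 and -1.57, with 41 members at least 1.5-fold lower under both. Totals without mitochondrial genes gave 0.95 for H4 and 0.17 for all members. Equal weight for every cell gave -1.50 for H2A, 1.09 for H4, 0.28 for all members, and 2 members at least 1.5-fold higher. A mitochondrial maximum of 10% gave -1.87 for H1, 0.95 for H4, 0.15 for all members and -2.05 for all but HIST1H4C. Without the 1% of cells with the most member UMIs H4 was 0.88 and all members 0.12, and without shared barcodes, an alternative added after the data were seen, 0.94 and 0.17. A minimum of 200 UMIs left 10 members at least 1.5-fold lower, of 11, since fewer genes enter, and a minimum of 1 UMI gave 4 at least 1.5-fold higher. For these counts of members, the share of all genes is given only at the minimum of 200 UMIs, where 33.7% were lower.

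For the members other than HIST1H4C, joint scoring gave log2 ratios of 1.58 for S over G1 and 1.17 for G2/M over G1 in control, and -1.36 in G1 and -1.98 in S cells for SP11 over control. Scoring at 4400 UMIs gave 1.31 for S over G1, 0.48 for S over G2/M and 0.83 for G2/M over G1 in control, and -1.45 in G1 cells for SP11 over control. Cells more than 0.05 from a boundary gave 2.37, 0.52 and 1.84 in control, and 1.11 for S over G1 and 1.17 for S over G2/M in SP11. Equal weight gave 1.80 for S over G1 and 1.47 for G2/M over G1 in control. The cause of these shifts was not tested. At 3000 UMIs per cell, 56.3% of control and 32.1% of SP11 cells had a UMI of these members and 2.57% of control cells had 10 or more. Without thinning, 86.2% and 58.6% had 1, and 30.4% and 4.58% had 10 or more.

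No paired analysis was possible because each group has 1 library. A member with 1 UMI in SP11 carries an interval of several log2 units, so its ratio has no firm size.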
